A study of Mus musculus with 15 samples.

Results

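Urate is the end product of purine breakdown in humans, and in mice most of it is degraded further by urate oxidase. In the kidney, urate is filtered, taken back from the lumen and also secreted, mostly in the proximal tubule. Slc22a12 encodes URAT1, an apical exchanger that takes urate back from the lumen. Slc2a9 encodes GLUT9, a facilitative carrier that moves urate across the basolateral membrane and, as another form, the apical one, and whose protein in mouse kidney is known from the distal convoluted tubule. Slc17a1 and Slc17a3 encode NPT1 and NPT4, voltage-driven organic anion carriers on the luminal side that secrete urate, and Abcg2 encodes an ATP-driven efflux pump that exports urate. The roles of NPT1 and NPT4 in urate secretion are known mainly from the human proteins. These 5 genes were taken by symbol from the 54752 genes of the count table, and all 5 were found.

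RNA had been sequenced from tubules dissected from mouse kidneys, in 15 libraries of 4 groups: Cldn10a KO proximal tubule (n = 3), WT proximal tubule (n = 4), Cldn10a KO distal convoluted tubule (n = 4) and WT distal convoluted tubule (n = 4). Claudin-10a is the form of claudin-10, a tight junction protein encoded by Cldn10, that makes the paracellular path of the proximal tubule permeable to anions. Tubules were pooled by kidney, 10 convoluted proximal ones or about 20 distal ones, per the labels' protocol. The sources used here do not give the strain, the age or the way the knockout was made. Whether the libraries are from separate animals is not said in the labels, so the p-values speak of the spread among libraries, which may be technical.

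The libraries held 28729339 to 51764746 counts, of which 8.02 to 19.7% were of nuclear protein-coding genes and 57.8 to 71.6% were of mitochondrial ribosomal RNA. Levels are given as CPM, the count of a gene over a library total that was scaled by trimmed means of M values, a step that multiplied the unscaled totals by 0.757 to 1.46. Mitochondrial ribosomal RNA is part of that total, so CPM are several times lower than when set against nuclear coding counts. Cldn10 had no count in the 3 knockout proximal libraries and 541 to 1514 counts in the 4 wild-type ones. The 6 markers of all proximal tubule summed to 3164 to 3407 CPM in knockout and 2780 to 3386 CPM in wild-type proximal libraries, against 7.72 to 14.4 CPM in knockout and 11.2 to 13.7 CPM in wild-type distal libraries. Markers of distal convoluted tubule summed to 3648 to 4118 CPM in knockout and 3121 to 4254 CPM in wild-type distal libraries. Both segment labels thus matched their defining markers.

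In the GENCODE M21 annotation of GRCm38, Slc17a3 lies on chromosome 13 from 23839434 to 23860716 and Slc17a1 from 23867750 to 23895730, both on the plus strand, with 7033 bases between them. Slc22a12 lies on the minus strand of chromosome 19 from 6535845 to 6543032, Slc2a9 on the minus strand of chromosome 5 from 38349273 to 38503143, and Abcg2 on the plus strand of chromosome 6 from 58584523 to 58695676. Of the 5 genes, Slc22a12 alone had exons that overlapped those of another gene, Nrxn2 on the opposite strand, and Nrxn2 had at most 26 counts in a library. Slc17a1 and Slc17a3 are related in sequence, and the sources used here do not give how reads that match more than one place were counted.

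The 250 bases before a RefSeq start of Slc22a12, Slc17a3 and Slc17a1 are shown because these 3 genes had higher values in all knockout proximal libraries than in any wild-type one after scaling. They are from RefSeq on GRCm38.p6, read 5′ to 3′ on the gene's strand: chr19:6543071-6543320 (minus strand) for Slc22a12, chr13:23839184-23839433 (plus strand) for Slc17a3 and chr13:23870023-23870272 (plus strand) for the second of the pair of Slc17a1 entries. Both Slc17a1 entries lie inside the span of the gene in GENCODE, which has a transcript that starts further upstream. They are in lower case because neither motif searched had a match in them. The motifs were the core of the site of HNF4, a transcription factor known to drive genes of the proximal tubule, and the TATA box.
Slc22a12: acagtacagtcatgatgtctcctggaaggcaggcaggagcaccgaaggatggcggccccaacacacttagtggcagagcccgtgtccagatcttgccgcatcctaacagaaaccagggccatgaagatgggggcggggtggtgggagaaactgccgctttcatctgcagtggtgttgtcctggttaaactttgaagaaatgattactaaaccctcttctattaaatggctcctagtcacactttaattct
Slc17a3: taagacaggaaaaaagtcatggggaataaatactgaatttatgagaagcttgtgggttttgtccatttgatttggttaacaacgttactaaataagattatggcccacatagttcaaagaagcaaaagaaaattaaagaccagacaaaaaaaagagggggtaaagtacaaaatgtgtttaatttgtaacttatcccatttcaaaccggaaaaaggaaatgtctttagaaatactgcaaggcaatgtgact
Slc17a1: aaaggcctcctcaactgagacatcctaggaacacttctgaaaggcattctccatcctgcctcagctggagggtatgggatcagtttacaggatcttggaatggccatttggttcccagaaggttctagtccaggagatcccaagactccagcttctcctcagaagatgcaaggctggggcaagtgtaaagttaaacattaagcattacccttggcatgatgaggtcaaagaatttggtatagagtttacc

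The HNF4 core CAAAGTCCA and the TATA box TATAAA, searched on both strands, had no match in the 8 entries of the 5 genes. Of the 32851 mouse promoters of the same length, 0.384% held the HNF4 core and 12.4% the TATA box. No match says only that these letters are not in these windows, and no binding was measured.

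Of the 5 genes, 4 were proximal and 1 was distal. Slc22a12, Slc17a1, Slc17a3 and Abcg2 were 117 to 626 times higher in proximal than in distal tubules of wild type, whereas Slc2a9 was lower in proximal tubule. In limma's moderated test with Benjamini-Hochberg adjustment over all genes, all 5 differed between the segments in both genotypes. The background was high, since 40.6% of 13834 genes differed between segments in knockout and 48.7% of 13616 did in wild type, so the count for the urate genes is read against that. Of all genes tested, 20.4% were higher in proximal tubule in knockout and 23.6% were in wild type. With unscaled library totals the median log2 difference of all genes was 0.44 in knockout and 0.37 in wild type, against -0.04 and -0.02 as reported. Higher genes then made up 4360 of 6045 called in knockout, against 2827 of 5622, and 4538 of 6558 in wild type, against 3210 of 6631, while the 5 urate genes kept their signs and calls. In bulk tubule pools, fewer cells of a type and less RNA per cell cannot be told apart.

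Slc2a9 had 2.54, 1.04 and 2.64 CPM in the knockout proximal libraries and 3.06, 1.41, 1.80 and 3.93 CPM in the wild-type proximal libraries. It had 23.6, 16.4, 16.2 and 24.8 CPM in the knockout distal libraries and 26.9, 25.5, 17.4 and 13.5 CPM in the wild-type distal libraries. The lowest distal library thus lay well above the highest proximal one in both genotypes. The log2 difference, proximal over distal, was -3.36 ± 0.34 (SE, adjusted p = 1.81e-06) in knockout and -3.10 ± 0.31 (SE, adjusted p = 4.09e-07) in wild type. The distal mean was 976% of the proximal mean in knockout and 816% in wild type. Measured against the markers of all proximal tubule in the same library, Slc2a9 was 0.0330 to 0.0835% of their sum in knockout proximal and 0.0416 to 0.142% in wild-type proximal libraries. The same share had a median of 178% in knockout distal and 168% in wild-type distal libraries, and Slc2a9 exceeded the sum of the proximal markers in all 8 of them. The distal libraries also held markers of other distal cells. Those of thick ascending limb summed to 454 to 599 CPM in knockout and 321 to 547 CPM in wild-type distal libraries, and those of intercalated cells to 100.8 to 192 CPM in knockout and 157 to 224 CPM in wild type. Most of the thick limb sum was Umod, with means of 228 CPM in knockout and 165 CPM in wild type, and Kcnj1, with 194 and 180 CPM. Slc12a1 had 79.3 and 45.4 CPM, and Cldn16 had 2.21 and 1.56 CPM. None of these markers was at 0 in every library of a distal group, and their part in the Slc2a9 level was not tested.

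Slc17a1 had the highest level of the 5 in proximal tubule. It had 0.420 to 1.19 CPM in knockout distal and 0.517 to 1.52 CPM in wild-type distal libraries, and its proximal over distal log2 difference was 8.58 ± 0.31 (SE, adjusted p = 2.50e-10) in knockout and 7.53 ± 0.29 (SE, adjusted p = 1.02e-11) in wild type. Abcg2 had 0.277 to 1.60 CPM in knockout distal and 0.690 to 1.74 CPM in wild-type distal libraries, with log2 differences of 7.53 ± 0.41 (SE, adjusted p = 7.35e-09) in knockout and 6.88 ± 0.30 (SE, adjusted p = 3.86e-11) in wild type. The distal means of both genes were 0.277 to 0.838% of their proximal means. The same percentage was 0.0598 to 0.595% for the 6 markers of all proximal tubule, and the part of proximal tubule RNA in the distal libraries was not tested.

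Slc22a12 and Slc17a3 were close to the limit of detection in distal tubule. Slc22a12 had 2, 2, 2 and 5 counts in the knockout distal libraries and 0, 2, 0 and 17 counts in the wild-type ones. Slc17a3 had 0, 0, 5 and 12 counts in the knockout distal libraries and 2, 8, 3 and 6 counts in the wild-type ones. A count of 0 allows up to 3 counts, which is 0.0774 to 0.103 CPM in the libraries concerned, for counting error only. The proximal over distal log2 difference was 9.14 ± 0.58 (SE, adjusted p = 2.65e-08) in knockout and 9.07 ± 0.85 (SE, adjusted p = 2.00e-07) in wild type for Slc22a12. For Slc17a3 it was 11.36 ± 0.84 (SE, adjusted p = 9.19e-08) in knockout and 9.29 ± 0.63 (SE, adjusted p = 5.54e-09) in wild type. With so few distal counts, the size of these differences depends on the count of 0.5 added before the logarithm, and their direction does not.

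**Figure D1:**
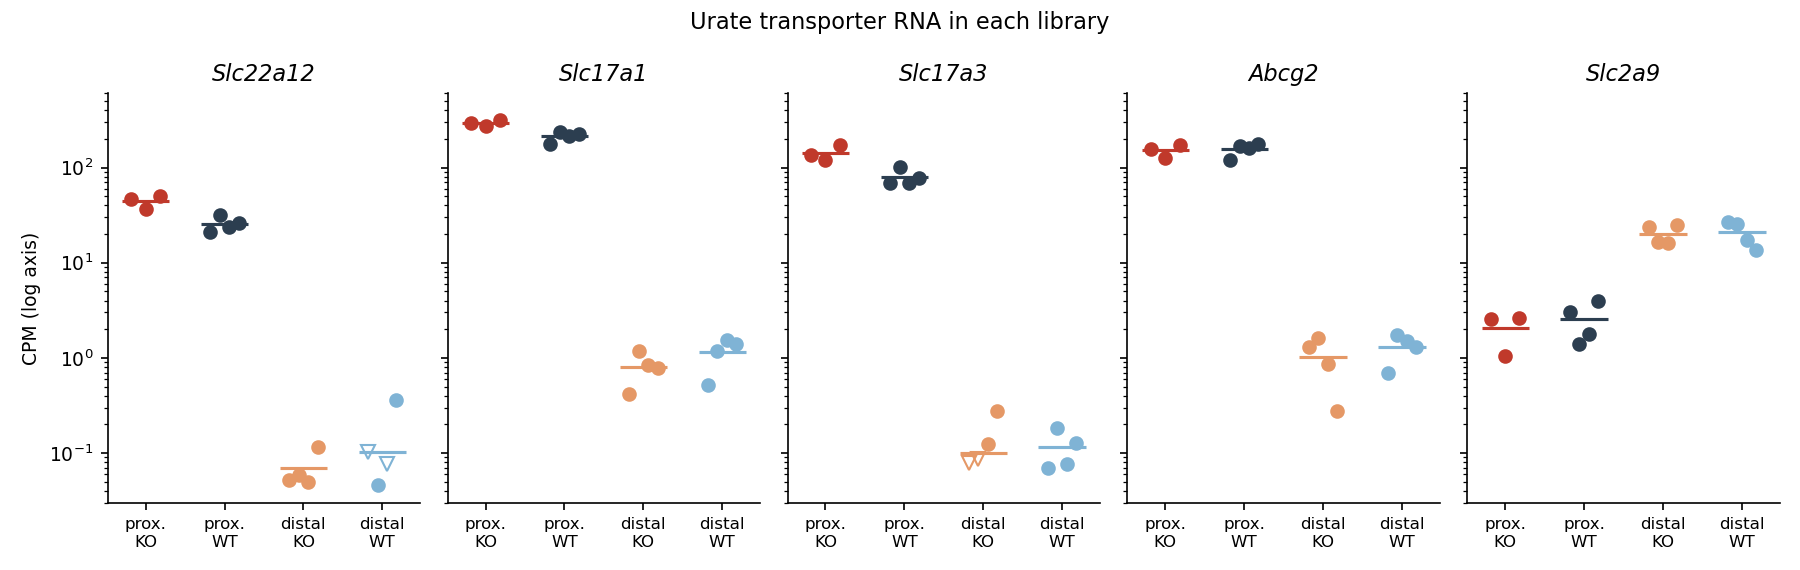
Each point is 1 library, on a logarithmic axis of CPM, in knockout and wild-type proximal tubule (3 and 4 libraries) and knockout and wild-type distal tubule (4 each). Lines are group means, and open triangles stand at 3 counts for libraries with no count; Slc2a9 is higher in distal tubule and the other 4 genes are higher in proximal tubule.

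To compare levels between genes, CPM were divided by the length of all annotated exons of the gene in kilobases. In knockout proximal tubule Slc17a1 stood first with 124 ± 9.5 CPM per kilobase, followed by Slc17a3 with 21.1 ± 3.9, Slc22a12 with 19.7 ± 2.9, Abcg2 with 18.7 ± 2.9 and Slc2a9 with 0.408 ± 0.18 (SD, n = 3). In wild-type proximal tubule Slc17a1 stood first with 90.4 ± 11.0 CPM per kilobase, followed by Abcg2 with 19.1 ± 3.1, Slc17a3 with 11.7 ± 2.2, Slc22a12 with 11.3 ± 2.1 and Slc2a9 with 0.502 ± 0.23 (SD, n = 4). Slc17a3, Slc22a12 and Abcg2 did not differ beyond their spread in knockout, and Slc17a3 and Slc22a12 did not in wild type. In distal tubule the order was Slc2a9 with 3.99 ± 0.90 CPM per kilobase in knockout and 4.10 ± 1.3 in wild type (SD, n = 4 each), then Slc17a1 with 0.342 ± 0.13 in knockout and 0.487 ± 0.19 in wild type, and then Abcg2 with 0.124 ± 0.071 in knockout and 0.160 ± 0.055 in wild type. Slc22a12 and Slc17a3 were both below 0.05 CPM per kilobase in distal tubule. With the length of the principal transcript instead, an alternative chosen after the data were seen, Slc17a3 had 33.0 ± 6.1 and Abcg2 26.7 ± 4.2 CPM per kilobase in knockout, whereas Slc22a12 had 20.0 ± 3.0, so the order of these 3 depends on the length used. By that length Slc17a3 had 18.2 ± 3.4, Abcg2 27.2 ± 4.4 and Slc22a12 11.5 ± 2.1 CPM per kilobase in wild type.

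After scaling, 3 of the 5 genes had higher levels in every knockout proximal library than in any wild-type one. They were Slc17a3, Slc22a12 and Slc17a1, with fitted ratios of 1.80, 1.73 and 1.36, while Abcg2 and Slc2a9 had fitted ratios of 0.974 and 0.819. None of the 5 passed the test over all genes, in which limma called 22 of 13229 genes (0.166%). At an unadjusted p under 0.05 there were 3 of the 5 genes and 976 of all genes. Groups did not overlap for 3 of the 5 genes, against 7.91% of all genes tested. With unscaled library totals 2 of the 5, Slc17a3 and Slc22a12, did not overlap, but the share of all genes was not computed on that scale. On the scaled levels the 3 genes had exact permutation p = 0.0286, which is the smallest that 3 against 4 libraries allow, and which is not adjusted over genes.

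Slc17a3 had 136, 121 and 172 CPM in the knockout proximal libraries and 69.1, 100.2, 69.5 and 77.2 CPM in the wild-type ones. The lowest knockout library was above the highest wild-type one. Its log2 change was 0.85 ± 0.18 (SE, 95% interval 0.46 to 1.23), with adjusted p = 0.0991 in limma and rank 46 of all genes by p. Without any 1 library the log2 change was 0.69 to 0.96, and it passed the threshold in 0 of 7 such fits.

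Slc22a12 had 46.5, 37.0 and 49.9 CPM in the knockout proximal libraries and 20.8, 31.8, 23.6 and 26.5 CPM in the wild-type ones. These groups did not overlap either. Its log2 change was 0.79 ± 0.18 (SE, 95% interval 0.40 to 1.18), with adjusted p = 0.137 in limma. Slc17a1, the neighbour of Slc17a3, had 293, 270 and 316 CPM in the knockout proximal libraries and 179, 238, 213 and 228 CPM in the wild-type ones. These groups overlapped with unscaled totals, with 277 to 414 CPM in knockout and 203 to 311 CPM in wild type on that scale. Its log2 change was 0.45 ± 0.15 (SE, 95% interval 0.12 to 0.77), with adjusted p = 0.459 in limma.

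Abcg2, the efflux pump, had 157, 126 and 174 CPM in the knockout proximal libraries and 119, 167, 161 and 175 CPM in the wild-type ones. The groups overlapped, with the knockout libraries inside the range of the wild-type ones. Its log2 change was -0.04 ± 0.17 (SE, 95% interval -0.41 to 0.34), with adjusted p = 0.975 in limma. Slc2a9 had a log2 change of -0.29 ± 0.42 (SE, 95% interval -1.18 to 0.61), with adjusted p = 0.909 in limma. Its interval was the widest of the 5, on 42 to 120 counts in knockout and 68 to 173 counts in wild-type proximal libraries.

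The authors' deposited table gave log2 fold changes of 0.84 for Slc17a3 (adjusted p = 0.00395) and 0.78 for Slc22a12 (adjusted p = 0.0143) in proximal tubule, both past 0.05. The authors' deposited table gave 0.44 for Slc17a1 (adjusted p = 0.307), -0.31 for Slc2a9 (adjusted p = 0.995) and -0.04 for Abcg2 (adjusted p = 0.998). The authors' deposited table had 136 of 14748 genes with an adjusted p past 0.05, which is 0.922%. The 2 sources thus gave nearly the same sizes and a different call for Slc17a3 and Slc22a12. One limma fit of all 15 libraries, which shares 1 estimate of the spread, called the same pair, with adjusted p = 0.00698 for Slc17a3 and adjusted p = 0.0177 for Slc22a12. Slc17a3 was also called without the filter on low counts (adjusted p = 0.0151) and with sample quality weights (adjusted p = 0.0459).

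The label numbers of the libraries fall into 2 ranges, and the sources used here do not give what the ranges stand for. Among the proximal libraries of the higher range (2 knockout, 3 wild type) the log2 difference was 0.71 for Slc17a3, 0.73 for Slc22a12, 0.43 for Slc17a1, -0.06 for Abcg2 and -0.28 for Slc2a9. Between the 2 libraries of the lower range, 1 of each genotype, it was 1.16 for Slc17a3, 0.92 for Slc22a12, 0.47 for Slc17a1, -0.01 for Abcg2 and -0.57 for Slc2a9. Each gene had the same sign in both ranges.

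**Figure D2:**
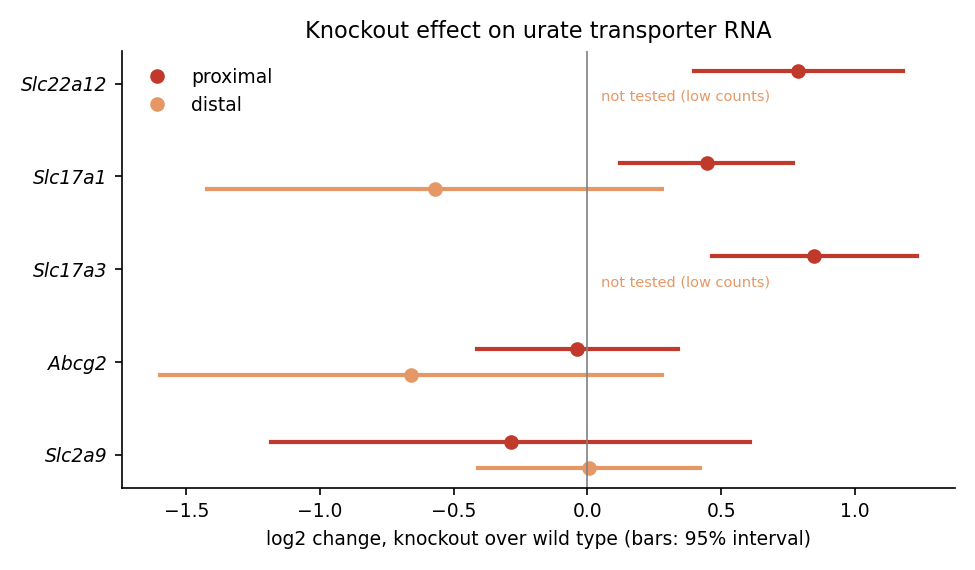
Points are log2 changes, knockout over wild type, of the 5 urate transporters in proximal tubule (3 against 4 libraries) and of the 3 that were tested in distal tubule (4 against 4), and bars are 95% intervals from limma. The proximal intervals of Slc22a12, Slc17a1 and Slc17a3 lie above 0 before adjustment over genes, and the remaining intervals cross 0.

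Ratios between the reads of 2 genes within a library need no scaling, and the 6 pairs among the 4 proximal genes were compared after the levels had been seen. For each 100 reads of Abcg2, Slc17a3 had 93.9 ± 6.5 reads in knockout and 51.3 ± 9.0 in wild-type proximal libraries (SD, n = 3 and 4). Slc22a12 had 29.2 ± 0.43 reads in knockout and 16.6 ± 2.1 in wild type per 100 of Abcg2, and Slc17a1 had 194 ± 17 in knockout and 139 ± 9.4 in wild type. In these 3 pairs the groups did not overlap, each with exact permutation p = 0.0286, which becomes 0.0571 after Benjamini-Hochberg adjustment over the 6 pairs. The design cannot give a smaller unadjusted p. These 3 ratios share Abcg2, whose level was already known to be similar in both genotypes. Their numerators had already been seen not to overlap after scaling, so the ratios restate the levels and are no separate test of them. The share of gene pairs without overlap over all genes was not computed for comparison with the 6 pairs.

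The ratio of Slc17a3 to Slc22a12 overlapped between the genotypes. Per 100 reads of Slc22a12, Slc17a3 had 322 ± 27 reads in knockout and 308 ± 19 in wild type, with exact permutation p = 0.543. Per 100 reads of Slc17a1, Slc17a3 had 48.6 ± 5.3 reads in knockout and 36.8 ± 4.3 in wild type, and Slc22a12 had 15.1 ± 1.2 in knockout and 11.9 ± 0.98 in wild type. In both of these pairs the groups did not overlap, with exact permutation p = 0.0571 and 0.0686 after adjustment.

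**Figure D3:**
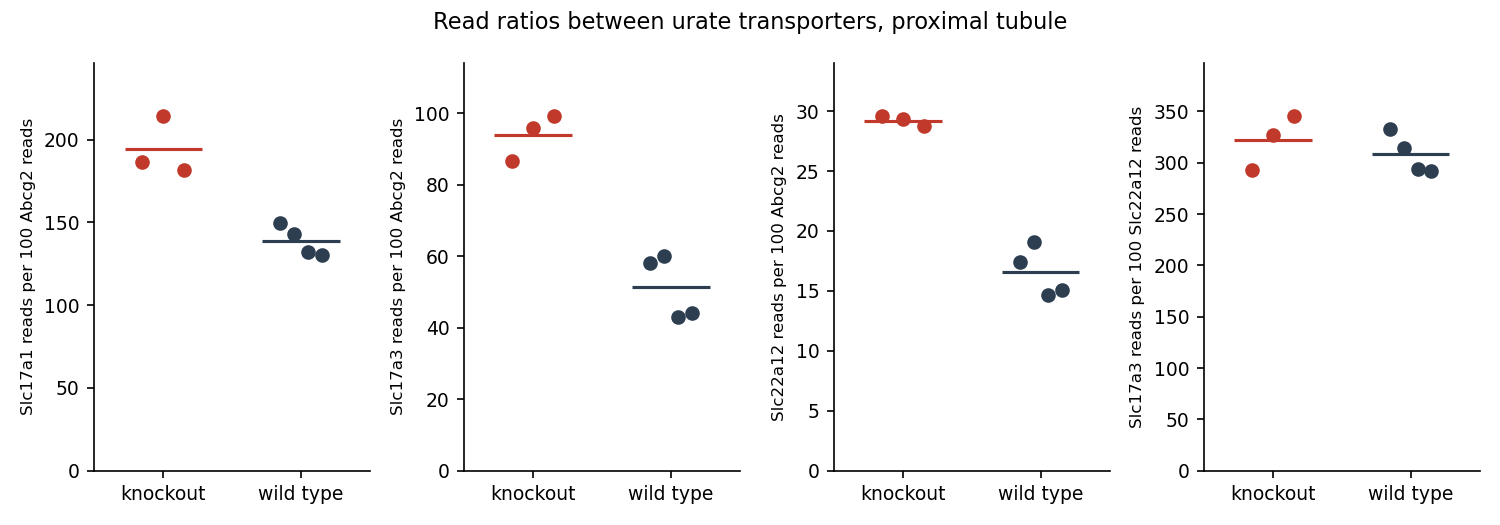
Each point is 1 proximal library and each line a group mean (3 knockout, 4 wild type), as reads of one urate transporter per 100 reads of another, with axes from 0. The 3 ratios to Abcg2 are higher in every knockout library, and the ratio of Slc17a3 to Slc22a12 overlaps between the genotypes.

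Markers of the position along the proximal tubule also had different sums in the 2 genotypes. The 9 markers of the straight proximal segment summed to 913 to 1018 CPM in knockout and 318 to 552 CPM in wild-type proximal libraries, and 8 of 8 tested had a log2 change above 0, with a median of 1.21. Of these, Atp11a (1.62 ± 0.25, SE, adjusted p = 0.0270) and Acy3 (1.12 ± 0.19, SE, adjusted p = 0.0381), rose in limma. The 8 markers of the early proximal segment summed to 2356 to 2725 CPM in knockout and 2625 to 3379 CPM in wild-type libraries, and 8 of 8 had a log2 change below 0, with a median of -0.50 and 0 called. No marker of either list was at 0 in every library of a proximal group. Endothelial markers summed to 17.9 to 32.4 CPM in knockout and 10.5 to 21.3 CPM in wild-type proximal libraries. The part of these markers in the urate transporter values was not tested.

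In distal tubule, 3 of the 5 genes passed the filter on low counts, and 0 of the 3 were called in limma, as were 0 of 12968 genes (0%), while 925 had an unadjusted p below 0.05. Slc2a9, the one member with a high level there, had a log2 change of 0.01 ± 0.20 (SE, 95% interval -0.41 to 0.42, adjusted p = 0.998). Slc17a1 had -0.57 ± 0.41 (SE, adjusted p = 0.786) and Abcg2 had -0.66 ± 0.45 (SE, adjusted p = 0.773), on 12 to 76 counts a library. Groups did not overlap for 0 of these 3, against 3.79% of all genes tested. Slc22a12 and Slc17a3 were not tested there. The authors' deposited table gave -0.04 for Slc2a9 in distal tubule (adjusted p = 0.978), and 3 of 7181 genes with an adjusted p were past 0.05 in it.

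Whether the knockout changed these genes by different amounts in the 2 segments was tested as an interaction over all 15 libraries. It was called for 0 of the 5 genes and 0 of 15279 genes (0%) in limma, while 849 genes had an unadjusted p below 0.05. The estimate, proximal change minus distal change on the log2 scale, was 1.03 ± 0.43 for Slc17a1 (SE, adjusted p = 0.805), 2.02 ± 1.13 for Slc17a3 (SE, adjusted p = 0.942) and 0.63 ± 0.51 for Abcg2 (SE, adjusted p = 0.978). It was 0.18 ± 1.14 for Slc22a12 and -0.28 ± 0.50 for Slc2a9 (SE, adjusted p = 0.994 each). The distal part of the estimates for Slc17a3 and Slc22a12 rests on 0 to 12 and 0 to 17 counts a library. Neither gene passed the filter in distal tubule alone. The size of these estimates therefore depends on the count of 0.5 added before the logarithm.

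Other carriers known to move urate or related organic anions were examined as a list of 13, of which 11 were tested in proximal tubule. One, Abcc4 (MRP4, an efflux pump that exports urate), rose in knockout, with 26.0 ± 7.2 CPM in knockout and 10.7 ± 2.2 CPM in wild type (SD, n = 3 and 4), a log2 change of 1.24 ± 0.21 (SE) and adjusted p = 0.0381 in limma. Of the 11, 9 had a log2 change above 0 and the median was 0.51, against a median of -0.01 over all genes tested. Slc22a6 and Slc22a8, the basolateral organic anion exchangers OAT1 and OAT3, had log2 changes of 0.65 ± 0.26 (SE, adjusted p = 0.589) and 0.46 ± 0.17 (SE, adjusted p = 0.577), neither past the threshold. Between segments in wild type, 8 of 9 tested carriers were higher in proximal tubule, against 23.6% of all genes, among them Slc22a6 (10.14 ± 0.90), Slc22a8 (9.37 ± 0.65) and Abcc2 (8.55 ± 0.49; log2, SE, each called). In distal tubule 2 of the 13 carriers were tested between genotypes and neither was called, with Abcc4 at a log2 change of 0.69 ± 0.24 (SE, adjusted p = 0.670).

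URAT1 exchanges luminal urate for monocarboxylates and other organic anions. Of a list of 7 carriers of monocarboxylates, dicarboxylates and sulfate, 6 were tested in proximal tubule between genotypes and 0 were called in limma, with a median log2 change of 0.36. Slc5a8, a sodium-coupled monocarboxylate carrier of the late proximal tubule that is also on the straight segment list, had 61.0 ± 16.8 CPM in knockout and 25.8 ± 18.4 CPM in wild type (SD, adjusted p = 0.509). Slc13a3, the basolateral dicarboxylate carrier, had a log2 change of 0.47 ± 0.25 (SE, adjusted p = 0.733), and Slc13a2, the apical one, had 0.68 ± 0.40 (SE, adjusted p = 0.759). Between segments in wild type, 6 of the 7 were higher in proximal tubule, against 23.6% of all genes. The exception was Slc16a7, the monocarboxylate carrier MCT2, which like Slc2a9 was lower there, with 0.324 ± 0.19 CPM in proximal and 334 ± 21 CPM in distal tubule (SD, n = 4 each) and a log2 difference of -10.19 ± 0.38 (SE, adjusted p = 7.41e-12).

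Pdzk1 is a scaffold that anchors URAT1 and NPT1 at the brush border. It had 37.5 ± 6.9 CPM in knockout proximal tubules and 36.1 ± 7.1 CPM in wild-type tubules of that segment (SD, n = 3 and 4), with a log2 change of 0.05 ± 0.19 (SE, adjusted p = 0.971). None of the 4 scaffolds examined was called between genotypes in proximal tubule, with a median log2 change of 0.13. Pdzk1 was higher in proximal than in distal tubule by 8.31 ± 0.67 in wild type (log2, SE, adjusted p = 3.66e-08), as were Pdzd3 and Slc9a3r1, whereas Slc9a3r2 was lower by a log2 difference of -2.01 ± 0.32 (SE, adjusted p = 5.59e-05).

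Hnf4a, which encodes the alpha form of HNF4, had 94.3 ± 16.6 CPM in knockout and 94.4 ± 10.2 CPM in wild-type proximal libraries (SD, n = 3 and 4), with a log2 change of -0.02 ± 0.16 (SE, adjusted p = 0.984 in limma). Hnf4g, the gene of the gamma form, had 3.35 ± 0.56 CPM in knockout and 2.37 ± 0.79 CPM in wild type (SD). Its log2 change was 0.56 ± 0.30 (SE, adjusted p = 0.733 in limma). Hnf4a was higher in proximal than in distal tubule in wild type, by 8.61 ± 0.52 (log2, SE, adjusted p = 1.48e-09).

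Enzymes of purine breakdown, of which some make or degrade urate, had group means of 0 to 7.64 CPM in these tubules. Uox, which encodes urate oxidase, and Allc had 0 counts in all 15 libraries. Xdh, the xanthine dehydrogenase that makes urate, had 2.86 ± 0.80 CPM in knockout and 2.19 ± 0.50 CPM in wild-type tubules of the proximal segment (SD, n = 3 and 4), with a log2 change of 0.34 ± 0.28 (SE, adjusted p = 0.829). Of the 12 breakdown genes 6 were tested there and 0 were called, with a median of -0.04. Of the 10 genes of purine salvage and synthesis all were tested and 0 were called, with a median of -0.19. In that list Prps2, which makes the ribose phosphate donor, had a log2 change of -0.54 ± 0.20 (SE, adjusted p = 0.557), and Ppat, which catalyses the committed step of purine synthesis, had -0.39 ± 0.20 (SE, adjusted p = 0.710). Prps2 and Ppat were lower in proximal than in distal tubule in wild type, with log2 differences of -2.85 ± 0.13 (SE, adjusted p = 5.73e-11) and -1.38 ± 0.15 (SE, adjusted p = 1.14e-06). The list as a whole was split between the segments. Of its 10 genes, 3 were called lower and 4 higher in proximal tubule in wild type, against 48.7% of all genes called in either direction. The 4 higher ones were Adk, Aprt, Ampd2 and Gart, and the median log2 difference of the list was 0.05.

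**Figure D4:**
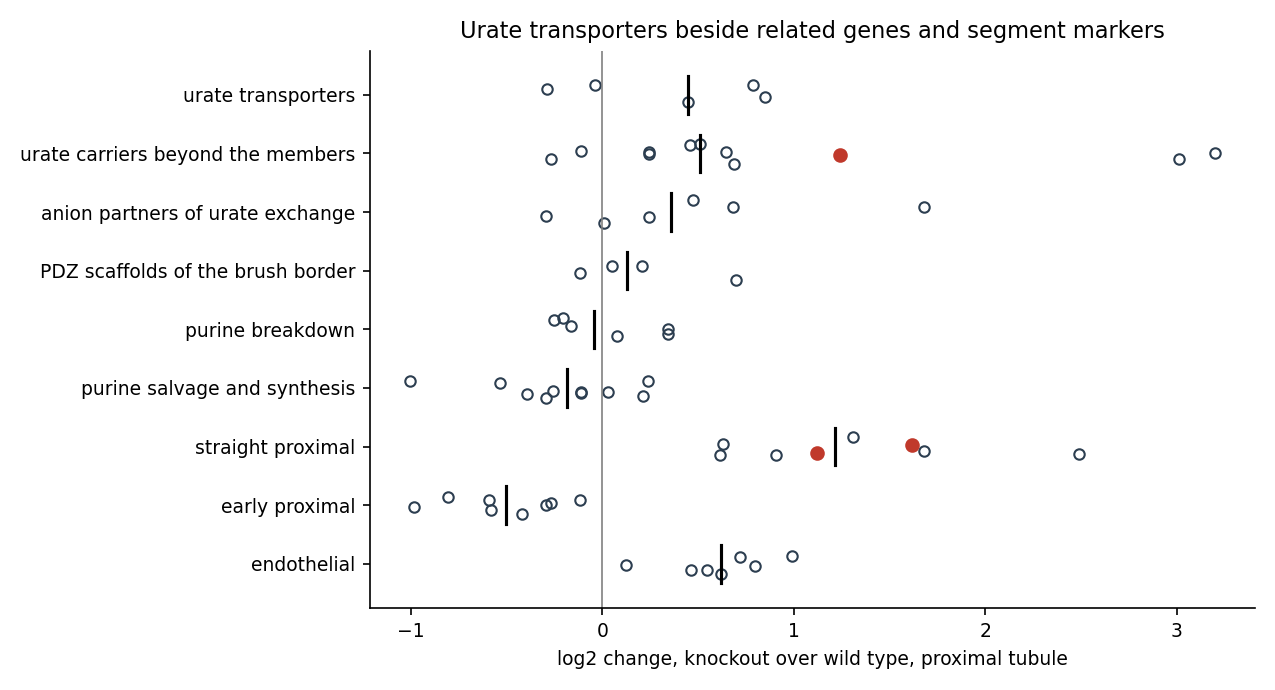
Each point is 1 gene that passed the filter, placed by its log2 change, knockout over wild type, in proximal tubule (3 against 4 libraries), and short black lines are list medians. Filled red points were called at an adjusted p under 0.05 (Abcc4, Atp11a and Acy3); the straight segment markers lie above 0 and the early segment markers below it.

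The genes closest in pattern to each urate transporter were found from the root mean square difference of centred log2 CPM, among 6695 protein-coding genes over the 7 proximal libraries. Car4, a carbonic anhydrase of the brush border, was closest to both Slc22a12 (0.10) and Slc17a3 (0.14), and Paqr7 was among the closest 3 of both. Median differences over all genes compared were 0.51 for Slc22a12 and 0.54 for Slc17a3. Tvp23b, Coro1c and Aldh3a2 were closest to Slc17a1, Nit2, Vmp1 and Ggact to Abcg2, and Zmynd10, Mospd3 and Car14 to Slc2a9. Over all 15 libraries and 7143 genes, Slc41a1, a magnesium carrier, was closest to Slc2a9 (0.40), with Trib1 and Abhd6 next. In the same comparison Slc17a1 was closest to Cyp4b1 and to Lrp2, which encodes megalin, and Slc17a3 to Gatm and to Slc34a1, the sodium phosphate cotransporter. Cmbl was closest to Slc22a12 and Slc18a1 to Abcg2. These likenesses describe the libraries, which share their scaling, and carry no test.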

How the data were processed

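The authors deposited a table of whole-number counts per gene and library for 15 mouse kidney tubule libraries, and tables of log2 fold changes with p-values and adjusted p-values for each segment. The unit of the deposited tables was recorded as other, because the layout of the count table was not recognised, although its values are whole-number counts. Per the submitters' processing notes, CASAVA 1.8, STAR 2.5, DESeq2 1.24.0 and GRCm38 were used; the sources used here do not give the counting program, the annotation or the handling of strand, which leaves reads of overlapping or near-identical genes uncertain. The sign of the authors' deposited fold changes was read from Cldn10 in proximal tubule, where its log2 fold change was -12.2. In distal tubule Cldn10 gave no sign, with a log2 fold change of 0.04. There the deposited changes had a Spearman correlation of 0.954 with the knockout over wild-type changes in limma.

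Groups were taken from the labels. Counts were scaled by trimmed means of M values and tested on log2 CPM (prior count 0.5) with voom weights in limma 3.58.1 (R 4.3.3), on the compared groups only, and over all 15 libraries for the interaction. A gene was tested where the smaller group's number of libraries had about 10 counts or more after scaling and its sum was at least 15. The threshold was 0.05 on the Benjamini-Hochberg adjusted p. For single values, groups were compared with exact two-sided permutation tests (smallest p 0.0286). The fits were tested on simulated data. Floors cover counting error alone, as no molecular identifiers were read.

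The 5 genes, the other gene lists, the markers and the tests were chosen with earlier results of these data known. Of each list, called genes were named, or else up to 3 with the smallest p, except that where many were called between segments some are given as counts, and that Hnf4a, Pdzk1, Uox, Allc, Xdh, Slc22a6 and Slc22a8 were named for their roles after their values were seen. Some members of the lists are not reported here.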

Additional observations from a re-analysis of the deposited data

Results flagged for a closer look

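In distal tubule, 2 libraries stood apart from the others of their group for Slc22a12. Knockout replicate 8 had 0.115 CPM (5 counts), against 2 counts in each of the other 3 knockout libraries. Wild-type replicate 4 had 0.364 CPM (17 counts), against 0, 2 and 0 counts in the other 3. In each case the gap to the nearest library, as a share of the group's range, exceeded Dixon's critical value of 0.829. Over the 15 groups of 4 libraries examined, chance gives such a gap in about 1 of 20 groups of continuous values. That rate need not hold for tied counts this low. Without wild-type replicate 4, the interaction estimate for Slc22a12 was -0.97 instead of 0.18, with neither called.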

How the results depend on the processing

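All 5 genes were called between the segments, with one sign each, under every alternative run. In proximal tubule between genotypes, 0 of the 5 were called as reported, against 1 without the low-count filter, 1 with sample quality weights, 2 in the fit of all 15 libraries and 0 whichever library was left out. All genes called there numbered 22 (13 higher) as reported, 14 (11 higher) with unscaled library totals, an alternative added after the data were seen, 80 without the filter, 36 with a stricter filter, 40 with quality weights, 123 in the fit of all 15 libraries and 2 to 18 with 1 library left out, where leaving out any of them but wild-type replicate 6 moved the count by over 1.5 times. In distal tubule 4 genes were called without the filter, against 0 as reported, and for the interaction 1 without the filter, 11 with limma-trend, 5 with a prior count of 2 and 0 to 1 with 1 library left out. The cause of these differences was not tested.

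Slc17a3, Slc22a12 and Slc17a1 kept a positive proximal log2 change in all 16 alternatives. Signs near 0 reversed. In proximal tubule, Slc2a9 was 0.0236 with quality weights (-0.57 to 0.15 with 1 library left out, the highest without knockout replicate 5) and Abcg2 was 0.0395 (-0.167 to 0.0912, above 0 without knockout replicate 5 or wild-type replicate 6). In distal tubule, Slc2a9 was -0.0134 with quality weights, -0.0896 with unscaled totals, -0.0119 with limma-trend and -0.0119 with a prior count of 2 (-0.20 to 0.13 with 1 library left out, below 0 without wild-type replicate 3 or 4 or knockout replicate 5 or 8). For the interaction, Slc2a9 was 0.0495 with quality weights (-0.56 to 0.15, above 0 without proximal knockout replicate 5) and Slc22a12 was -0.0818 with limma-trend (-0.97 to 0.85, below 0 without distal wild-type replicate 4).

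Some replicate numbers in the titles are shared between segments, namely 5 and 7 in knockout and 1, 2 and 3 in wild type. Libraries with the same number did not deviate together (correlations of -0.12 to 0.02). No proximal library was most like the distal one with its own number. Whether such libraries share an animal cannot be told from these correlations, since the segments differ. With the replicate block, genes called between segments in knockout numbered 3238, against 5622 as reported, and 5840 in wild type, against 6631, and all 5 urate transporters were still called. In that fit the segment difference rests only on libraries whose number is in both segments. An effect of pairing on these counts cannot be told apart from that of using fewer libraries. Scaled to nuclear protein-coding counts, levels were higher in all groups, for example 378 for Slc22a12 in knockout proximal tubule, and 3 genes again had proximal groups that did not overlap, against 2 with unscaled totals. The share of all genes without overlap was not computed for either of these totals. Distal levels of Slc22a12 and Slc17a3 rest on at most 17 counts a library and set no direction between genotypes.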
